A study of Ovis aries with 16 samples.

Results

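The genes described here are IGF1, IGF1R and IGFBP4, a ligand, its receptor and a binding protein of the insulin-like growth factor (IGF) system, as measured in the hypothalamus of the fetal sheep. They were chosen by name: every non-control probe whose gene name or annotation in the scanner files was one of the 3 genes was taken. They are 3 of the 843 genes named on the array and had 6 of its 15008 distinct probes, 1 for IGF1, 3 for IGF1R and 2 for IGFBP4. All 6 were well above background on all 16 arrays, so all 6 were among the 12937 probes tested.

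RNA from the hypothalamus of 16 fetuses, 1 fetus per array, was read on a single-color Agilent array of sheep oligonucleotides. There were 4 groups of 4 fetuses: estradiol+BCO, estradiol, BCO and control. The estradiol+BCO fetuses received estradiol at 250 ug per day for 5 days and then brachiocephalic artery occlusion (BCO), which interrupts flow in the artery that feeds the fetal head, for 10 min. The estradiol fetuses received the same estradiol treatment and a sham occlusion. The BCO fetuses received the occlusion without estradiol, and the control fetuses a sham occlusion without estradiol. All fetuses carried chronic catheters, were studied between day 124 and day 128 of a 147-day gestation and had blood drawn during the experiment. Tissue was collected 1 h after the occlusion or sham period began, which left 50 min of recovery after the occlusion. The tissue was whole hypothalamus, so fewer cells of a type and less RNA per cell cannot be told apart.

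IGF1 is a secreted growth factor that acts on neurons and glia through the IGF1 receptor, a receptor tyrosine kinase encoded by IGF1R that signals through the PI3 kinase and AKT pathway and the MAP kinase pathway. In extracellular fluid IGFs are held by binding proteins, of which IGFBP4 mostly limits access of IGFs to the receptor until it is cleaved by the protease PAPPA. The system supports growth and survival of cells in the developing brain, and estrogen receptors and IGF1 receptors are known to interact in the hypothalamus of rodents.

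The 3 IGF1R probes are shown because they did not give the same difference in the comparison with the lowest p-value described below. Each has 60 bases and matches a different partial coding record of the ovine receptor. Probe A_70_P026721, the brightest, begins at base 387 of its record, probe A_70_P041041 at base 5 and probe A_70_P008176 at base 46. The files place none of these records on a chromosome.
A_70_P026721: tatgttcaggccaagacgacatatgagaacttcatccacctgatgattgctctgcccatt
A_70_P041041: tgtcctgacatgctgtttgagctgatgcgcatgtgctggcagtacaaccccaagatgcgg
A_70_P008176: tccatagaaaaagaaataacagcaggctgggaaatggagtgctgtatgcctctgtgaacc

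Their GC content was 45%, 55% and 45%, and none shared a run of 15 or more bases on either strand with any other probe of the array. The IGF1 probe, A_70_P051091, begins at base 520 of its mRNA record. Its first 30 bases, shown to identify the only IGF1 measurement, lie ahead of the untranslated stretch that the rest of the probe enters.
A_70_P051091: aacacaagcagagggagtgcaggaaacaag

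The IGFBP4 probes, A_70_P017097 and A_70_P017096, begin at bases 1768 and 1769 of one partial liver record and overlap by 59 bases. They are therefore repeated readings of a single target sequence and not separate evidence.

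Values below are log2 signals minus the 75th percentile of the array's probes, so 0 marks a probe at that percentile. That percentile lay between 2047 and 2939 signal units, and 77.27% to 86.41% of probes per array were well above background. The arrays lay on 2 slides, with 2 arrays of every group on each (replicates 1 and 2 on slide 1, replicates 3 and 4 on slide 2). With the 4 groups in the model, 860 of 12937 probes (6.65%) differed between the slides, and values on slide 1 and then slide 2 are given beside most of the differences below. Of 17 hypothalamic neuron marker genes 11 were tested. Of these 9, among them POMC, AGRP, NPY and oxytocin, were well above background on all 16 arrays, GNRH1 on 14 and GHRH on 11, while AVP, CRH, TRH, HCRT, KISS1 and CARTPT had no probe named for them here. Their summed signal, in multiples of each array's 75th percentile, was 17.6 to 34.2 in estradiol+BCO, 14.4 to 45.8 in estradiol, 4.93 to 12.6 in BCO and 19.9 to 34.1 in control fetuses.

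IGF1, IGF1R and IGFBP4 signals were measured in every hypothalamus. None of the 3 genes changed past the threshold in any of 8 comparisons. That threshold was an adjusted p under 0.05 in limma, with Benjamini-Hochberg adjustment over all 12937 probes. The array as a whole had 1 probe past it (0.00773%) in estradiol+BCO against estradiol, 1 (0.00773%) in the interaction and 0 (0%) in each of the other 6 comparisons. At an unadjusted p under 0.05, 1 of the 6 member probes was lower in estradiol+BCO against estradiol, 1 in estradiol against control and 1 in estradiol averaged over BCO, for which the shares of all probes are given with those results. In the other 5 comparisons it was 0 of 6, beside 7.17% of all probes in BCO against control, 9.52% in estradiol+BCO against BCO, 5.77% in estradiol+BCO against control, 7.53% in BCO averaged over estradiol and 7.2% in the interaction. The smallest adjusted p of any member probe was 0.613, for IGF1R in estradiol+BCO against BCO. Every interval below is a 95% confidence interval of a log2 difference, and for the 3 genes all of them left room for changes in either direction except those named. The plot of the 6 probes by fetus shows each array's value.

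**Figure D1:**
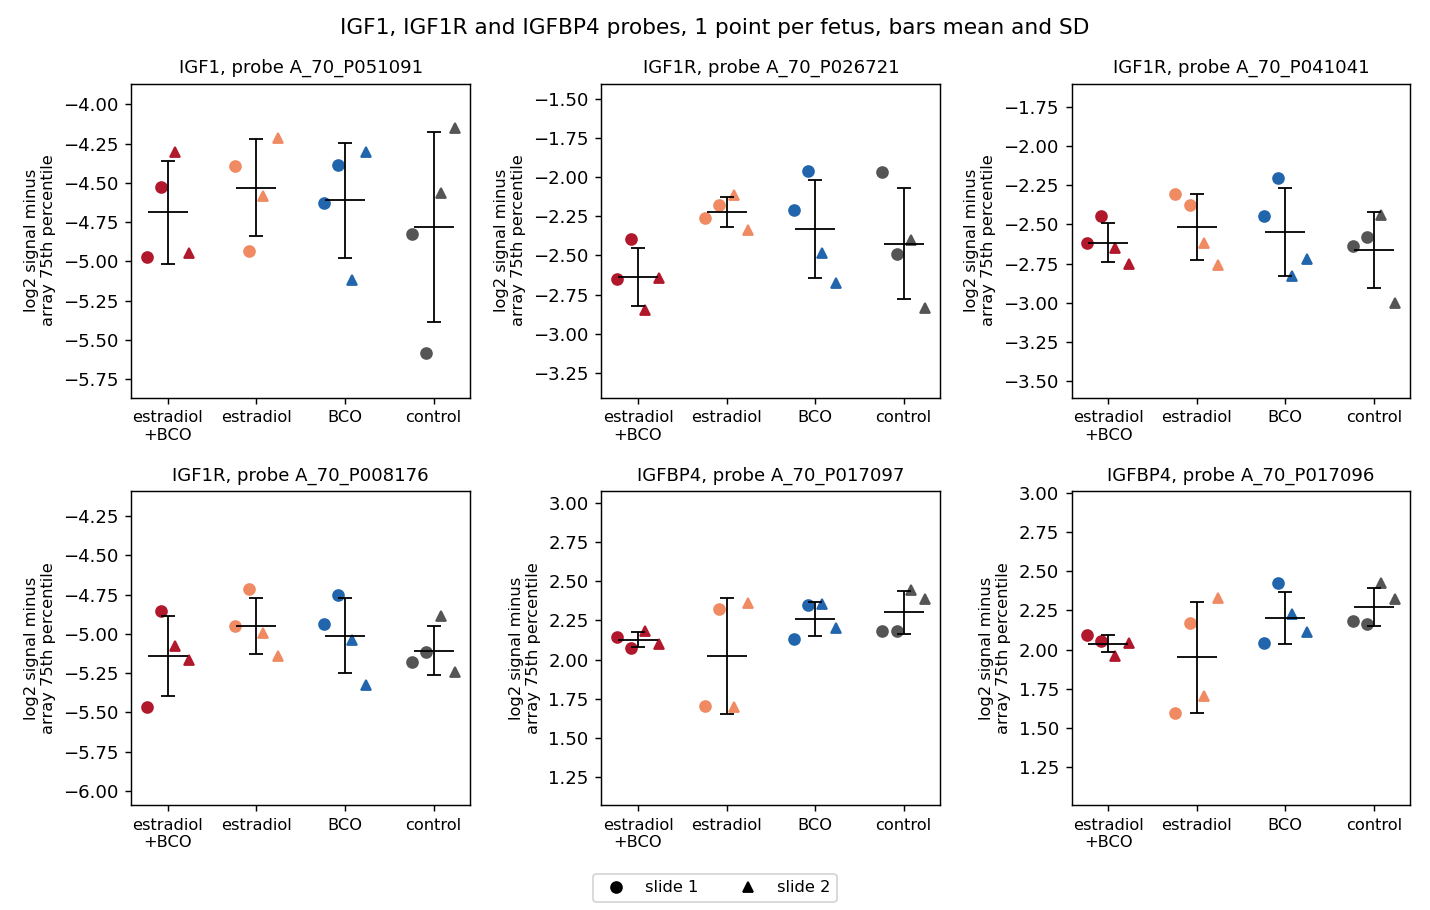
Log2 signal minus the array's 75th percentile (vertical axis, each panel 2 log2 units tall) for the 6 probes of IGF1, IGF1R and IGFBP4 in estradiol+BCO, estradiol, BCO and control fetuses. Circles are slide 1 and triangles slide 2, and bars give the mean and SD of 4 fetuses; the estradiol+BCO and estradiol fetuses do not overlap for IGF1R probe A_70_P026721, and the 4 estradiol fetuses lie 2 low and 2 high for IGFBP4.

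IGF1, the ligand, was measured by 1 probe, at 42.7 to 135 signal units. It read -4.97, -4.53, -4.31 and -4.95 in the estradiol+BCO fetuses, and -4.39, -4.93, -4.59 and -4.21 in the estradiol fetuses. It read -4.63, -4.39, -5.12 and -4.30 in the BCO fetuses, and -4.82, -5.58, -4.56 and -4.15 in the control fetuses. The control fetuses held both the lowest and the highest of the 16 values, and all groups overlapped.

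The IGF1 means were -4.69 ± 0.33 in estradiol+BCO, -4.53 ± 0.31 in estradiol, -4.61 ± 0.37 in BCO and -4.78 ± 0.60 in control fetuses (SD, n = 4 each). The order from high to low was therefore estradiol, BCO, estradiol+BCO and control. No neighbours in that order differed by more than the within-group SD of 0.42, which was larger than that of 76% of tested probes. The median tested probe had a within-group SD of 0.25. The IGF1 probe was dim, brighter than 22.4% of tested probes, and its SD was not compared with probes of like brightness.

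No IGF1 difference approached the threshold. The largest pairwise one, estradiol against control, was 0.25 ± 0.28 (SE, interval -0.35 to 0.85, adjusted p = 1 in limma). It was 0.54 on slide 1 and -0.04 on slide 2. For BCO against control the difference was 0.17 ± 0.28 (interval -0.43 to 0.77, adjusted p = 0.984 in limma), made up of 0.70 on slide 1 and -0.36 on slide 2. Control replicate 2, on slide 1, was the lowest of the 16 arrays: without it, BCO against control became -0.10 and estradiol against control -0.02. For estradiol+BCO against estradiol it was -0.16 ± 0.28 (-0.09 and -0.23 on the slides), and for estradiol+BCO against BCO -0.08 ± 0.28 (-0.24 and 0.09). The interaction, the BCO difference in estradiol-treated fetuses minus that in untreated fetuses, was -0.33 ± 0.39 (limma adjusted p = 0.936), again with opposite signs on the slides (-0.78 and 0.13).

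IGF1R, the receptor, gave its lowest p-value in estradiol+BCO against estradiol, and it did so with 1 of its 3 probes. Probe A_70_P026721 read -2.65, -2.40, -2.85 and -2.64 in the estradiol+BCO fetuses, against -2.26, -2.18, -2.12 and -2.34 in the estradiol fetuses. It read -2.21, -1.96, -2.48 and -2.67 in the BCO fetuses, and -1.97, -2.49, -2.40 and -2.83 in the control fetuses. All 4 estradiol+BCO fetuses lay below all 4 estradiol fetuses, while the BCO and control fetuses spanned most of the range of both.

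The difference for that probe was -0.41 ± 0.18 (SE, interval -0.79 to -0.03), a ratio of 0.753 (unadjusted p = 0.0372, adjusted p = 0.615, limma). It did not pass the threshold. It was the only one of the 6 member probes with an unadjusted p under 0.05 on the lower side or with groups that did not overlap in this comparison. Over all tested probes 4.28% had such a p and 2.79% had all estradiol+BCO arrays below all estradiol arrays, while 1 probe, not a member, passed the adjusted threshold (0.00773%). On the slides the difference was -0.30 and -0.52.

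The other IGF1R probes did not show a difference of that size. Probe A_70_P041041 read -2.62, -2.45, -2.65 and -2.75 in estradiol+BCO fetuses, against -2.31, -2.37, -2.62 and -2.76 in estradiol fetuses, and the groups overlapped. Its difference was -0.10 ± 0.16 (interval -0.44 to 0.24), with -0.19 and -0.01 on the slides. Probe A_70_P008176 read -5.47, -4.86, -5.08 and -5.17 in estradiol+BCO fetuses, against -4.95, -4.71, -4.99 and -5.14 in estradiol fetuses, with a difference of -0.19 ± 0.15 (interval -0.51 to 0.13), or -0.33 and -0.05 on the slides. All 3 probes were thus lower on average in estradiol+BCO, and the intervals of the other probes include both 0 and part of the range of the first. Whether the probes differ from each other in this response was not tested.

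In the BCO fetuses probe A_70_P041041 read -2.45, -2.20, -2.83 and -2.72, against -2.64, -2.58, -2.44 and -3.00 in control fetuses. Probe A_70_P008176 read -4.94, -4.75, -5.04 and -5.32 in BCO fetuses, against -5.18, -5.12, -4.89 and -5.24 in control fetuses. Control replicate 3 was the highest of its group for both.

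The group means of probe A_70_P026721 ran from estradiol (-2.22 ± 0.10) through BCO (-2.33 ± 0.31) and control (-2.42 ± 0.36) down to estradiol+BCO (-2.64 ± 0.18; SD, n = 4 each). Each step in that order was smaller than the within-group SD of 0.26. The order estradiol, BCO, estradiol+BCO, control was seen for probe A_70_P041041 instead, and estradiol, BCO, control, estradiol+BCO for probe A_70_P008176. Estradiol was therefore highest and BCO next for every IGF1R probe, by amounts within the spread.

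The remaining IGF1R comparisons were smaller relative to their error. In BCO against control the 3 probes differed by 0.09 ± 0.18, 0.12 ± 0.16 and 0.09 ± 0.15, and in estradiol against control by 0.20 ± 0.18, 0.15 ± 0.16 and 0.16 ± 0.15, in the order in which their sequences are shown. On slide 2 alone probes A_70_P041041 and A_70_P008176 were below 0 in BCO against control (-0.05 and -0.12), with 0.28 and 0.30 on slide 1. For estradiol+BCO against BCO the differences were -0.30 ± 0.18, -0.07 ± 0.16 and -0.13 ± 0.15, with -0.44, -0.21 and -0.32 on slide 1 and -0.17, 0.08 and 0.06 on slide 2. The interaction was -0.50 ± 0.25 for probe A_70_P026721 (interval -1.04 to 0.04, unadjusted p = 0.0659, adjusted p = 0.726, limma), -0.22 ± 0.22 for probe A_70_P041041 and -0.29 ± 0.21 for probe A_70_P008176. For the first probe it had one sign on both slides (-0.45 and -0.56), whereas the others were below 0 on slide 1 (-0.48 and -0.63) and slightly above it on slide 2 (0.04 and 0.07). The array as a whole had 1 probe past the adjusted threshold in the interaction (0.00773%), and 4.6% of probes lay below 0 with an unadjusted p under 0.05, against 0 of the 6 member probes.

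The slides also differed in the level of the members, though no member passed the adjusted threshold. With the groups in the model, slide 2 minus slide 1 was -0.28 (unadjusted p = 0.0205, adjusted p = 0.151, limma) for probe A_70_P026721 and -0.27 (unadjusted p = 0.00785, adjusted p = 0.0873, limma) for probe A_70_P041041. It was -0.11 for probe A_70_P008176, 0.26 for IGF1, and 0.08 and 0.05 for the IGFBP4 probes. With slide as a block, estradiol+BCO against estradiol for probe A_70_P026721 had an unadjusted p = 0.0161 and the interaction an unadjusted p = 0.0324 (limma), and neither passed after adjustment.

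**Figure D2:**
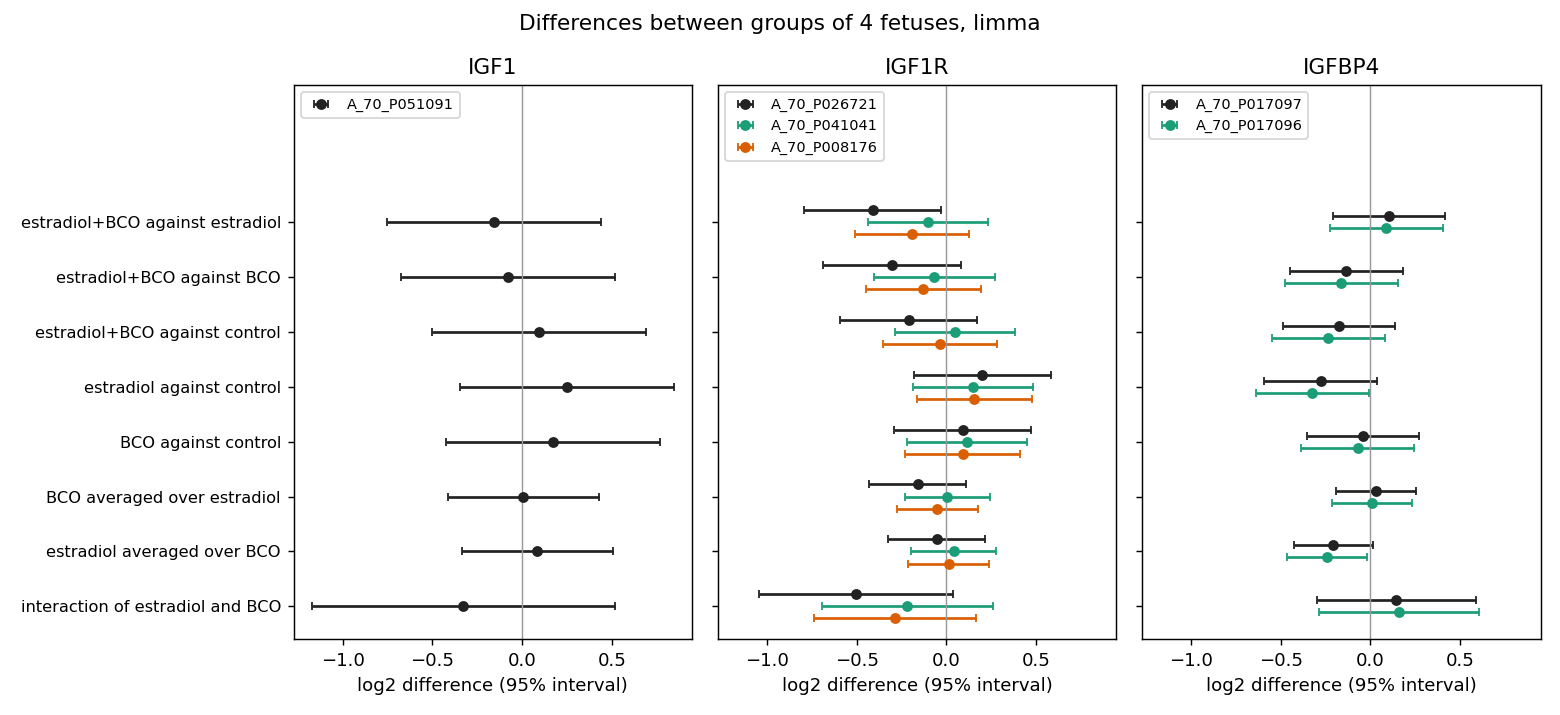
Log2 differences (horizontal axis) with 95% confidence intervals for the IGF1, IGF1R and IGFBP4 probes in 8 comparisons of groups of 4 fetuses, from limma, each probe in its own color. The intervals that leave 0 out are those of IGF1R probe A_70_P026721 in estradiol+BCO against estradiol and of IGFBP4 probe A_70_P017096 in estradiol against control and in estradiol averaged over BCO; none passes after adjustment over all probes.

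IGFBP4, the binding protein, was measured at 7539 to 16013 signal units by probe A_70_P017097, and its means were lower in both estradiol-treated groups than in the untreated ones. Probe A_70_P017097 read 2.15, 2.08, 2.18 and 2.10 in estradiol+BCO fetuses and 1.71, 2.33, 1.70 and 2.36 in estradiol fetuses. It read 2.13, 2.35, 2.35 and 2.20 in BCO fetuses and 2.19, 2.18, 2.45 and 2.39 in control fetuses. The estradiol+BCO fetuses lay within a narrow band, whereas 2 of the 4 estradiol fetuses, 1 on each slide, were the lowest of the 16 and the other 2 were among the highest.

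The means of this probe were 2.13 ± 0.05 in estradiol+BCO, 2.02 ± 0.37 in estradiol, 2.26 ± 0.11 in BCO and 2.30 ± 0.14 in control fetuses (SD, n = 4 each). From high to low the order was control, BCO, estradiol+BCO and estradiol, and each step was smaller than the within-group SD of 0.21. Probe A_70_P017096 gave the same order, at 2.04 ± 0.06, 1.95 ± 0.35, 2.20 ± 0.17 and 2.27 ± 0.12 in estradiol+BCO, estradiol, BCO and control fetuses.

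Estradiol averaged over BCO, the mean of the estradiol differences with and without occlusion, was -0.21 ± 0.10 for probe A_70_P017097 (interval -0.43 to 0.02, unadjusted p = 0.0671, adjusted p = 0.874, limma) and -0.24 ± 0.10 for probe A_70_P017096 (interval -0.47 to -0.02, unadjusted p = 0.0349, adjusted p = 0.874, limma). On the slides it was -0.15 and -0.26 for the first and -0.23 and -0.26 for the second. Probe A_70_P017096 was the only member probe with an unadjusted p under 0.05 there, beside 3.8% of all probes with such a p on the lower side and 0 probes past the adjusted threshold.

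For estradiol against control the IGFBP4 probes differed by -0.28 ± 0.15 (unadjusted p = 0.0788, limma) and -0.32 ± 0.15 (unadjusted p = 0.0456, limma), both with an adjusted p of 1. On the slides they were -0.17 and -0.39 for the first and -0.29 and -0.35 for the second, and with slide as a block the second had an unadjusted p = 0.0503 (limma). Only 1 of the 6 member probes had an unadjusted p under 0.05 in that comparison, on the lower side, beside 1.69% of all probes. The groups overlapped, since probe A_70_P017096 read 1.60, 2.17, 1.71 and 2.33 in estradiol fetuses, against 2.16 to 2.42 in control fetuses. In estradiol+BCO against BCO the differences were -0.13 ± 0.15 and -0.16 ± 0.15. In BCO against control they were -0.04 ± 0.15 and -0.07 ± 0.15, both 0.06 on slide 1 and -0.14 and -0.20 on slide 2, and in estradiol+BCO against estradiol 0.10 ± 0.15 and 0.09 ± 0.15.

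In estradiol+BCO against control, probe A_70_P017096 read 2.09, 2.06, 1.96 and 2.04 in estradiol+BCO fetuses, against 2.19, 2.16, 2.42 and 2.32 in control fetuses. These groups did not overlap, as for 2.06% of all probes in that direction, and the difference was -0.24 ± 0.15 (interval -0.55 to 0.08, adjusted p = 0.86, limma), with -0.10 and -0.37 on the slides. Probe A_70_P017097, shifted by 1 base, overlapped between the groups and differed by -0.18 ± 0.15 (-0.07 and -0.28 on the slides). Of 12 markers of endothelial and mural cells 6 were tested (PECAM1, KDR, TEK, FLT1, ABCB1 and ABCG2). The mural genes ACTA2, PDGFRB and TAGLN had no probe named for them, and TEK was well above background on 7 arrays. The summed signal of the 6 was 3.81 to 4.55 in estradiol+BCO and 4.92 to 5.43 in control fetuses. It was 4.81 to 5.64 in estradiol and 3.85 to 5.46 in BCO fetuses. By the median of the 6 genes the groups overlapped, at -2.728 to -2.391 in estradiol+BCO and -2.425 to -2.342 in control fetuses. The part of these genes in the IGFBP4 values was not tested.

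Over the 16 fetuses the probes of a gene had r of 0.59 to 0.95 with each other. Of these 4 pairs 3 passed adjustment by Pearson r and 2 by both measures, and 0 of the 11 pairs of probes of different genes passed. Of 15 relations between member probes, the 2 overlapping IGFBP4 probes had Pearson r = 0.95 and Spearman rho = 0.89 (adjusted permutation p = 0.00015 and 0.00045), r = 0.87 without the 2 farthest arrays, and 0.96 and 0.95 on the slides. IGF1R probes A_70_P041041 and A_70_P008176 had r = 0.71 and rho = 0.74 (adjusted permutation p = 0.0172 and 0.0103), r = 0.81 without the 2 farthest arrays, and 0.81 and 0.68 on the slides. Probe A_70_P026721 had r = 0.63 with A_70_P041041 (rho = 0.60, adjusted permutation p = 0.0387 and 0.0675, r = 0.58 without the farthest, 0.46 and 0.45 on the slides). With A_70_P008176 it had r = 0.59 (rho = 0.59, adjusted permutation p = 0.0615 and 0.0675, r = 0.55 without the farthest, 0.57 and 0.56 on the slides). Between genes r lay between -0.23 and 0.05, with no adjusted permutation p under 0.767.

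The rest of the IGF system was read from a list of 22 ligands, receptors, binding proteins and their regulators. Of these 12 had a probe and 11 were tested, the 3 genes included. Both probes of PAPPA, the protease that cleaves IGFBP4, were well above background on 1 array only and were not tested. In every comparison 0 of the 11 genes passed the threshold by limma. By each gene's brightest probe, 1 of 11, IGF1R itself, was lower at an unadjusted p under 0.05 in estradiol+BCO against estradiol (4.28% of all probes). In the other 7 comparisons it was 0 of 11. Of the other probes, IGFBP4 probe A_70_P017096 had such a p in estradiol against control and estradiol averaged over BCO, as given above. IGF2R probe A_70_P026306, well above background on 6 arrays, was higher in estradiol+BCO against BCO and estradiol averaged over BCO (unadjusted p = 0.0281 and 0.0404, limma). The list's median difference in estradiol+BCO against estradiol was -0.04, against -0.01 for all probes. In estradiol against control its median was 0.15, against -0.01 for all probes, and in estradiol+BCO against BCO -0.17, against -0.02. In BCO against control it was 0.07, against 0.01.

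**Figure D3:**
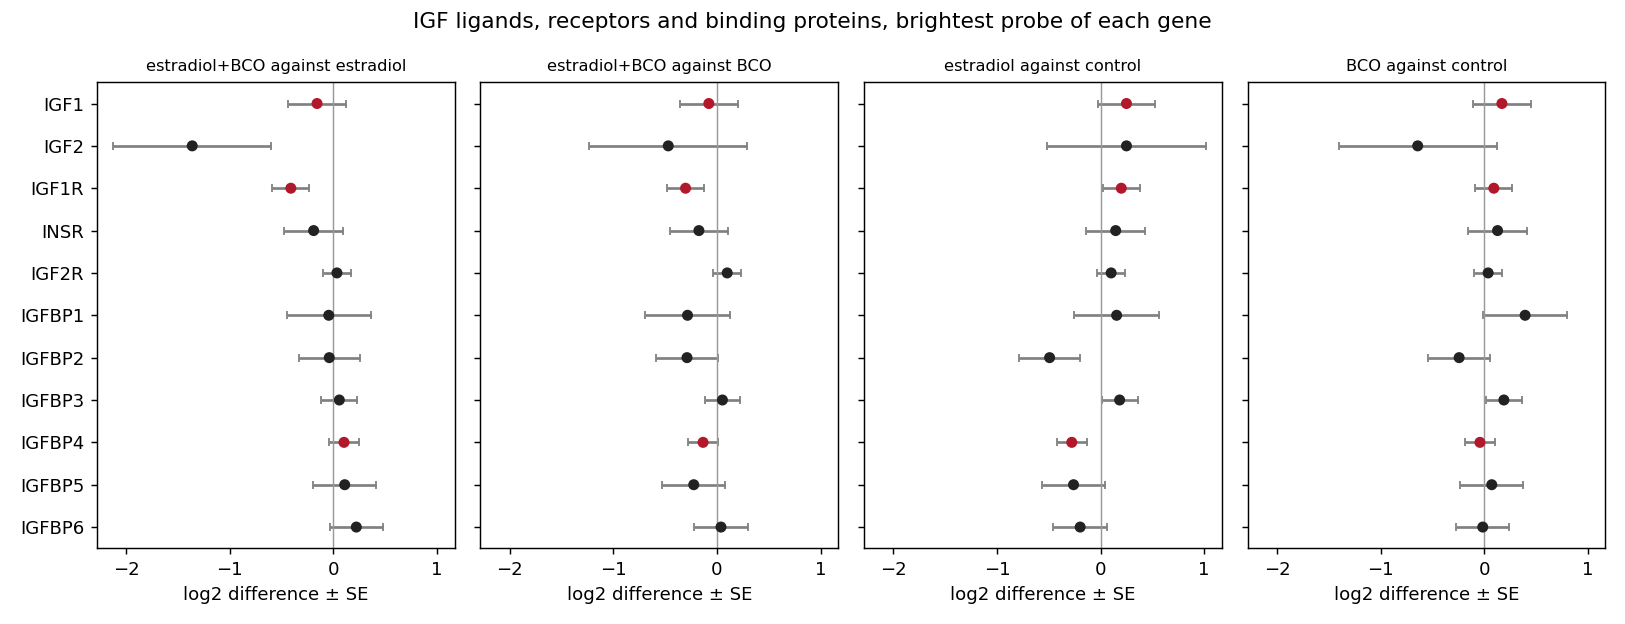
Log2 differences ± SE (horizontal axis) of the brightest probe of 11 IGF-system genes in 4 comparisons, with IGF1, IGF1R and IGFBP4 in red. IGF2 has the widest errors, at -1.36 ± 0.76 in estradiol+BCO against estradiol, and IGFBP2, IGFBP4, IGFBP5 and IGFBP6 lie below 0 in estradiol against control, none past the threshold.

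IGF2, the main fetal IGF ligand, had the widest spread. Its brightest probe read 0.55, 2.90, 1.68 and 0.02 in estradiol+BCO fetuses, against 2.93, 3.23, 1.91 and 2.53 in estradiol fetuses. The groups overlapped, and the difference was -1.36 ± 0.76 (adjusted p = 0.707, limma), alike on the slides (-1.36 each). Its other probe differed by -1.36 ± 0.72 (adjusted p = 0.684, limma). For estradiol+BCO against control the brightest probe differed by -1.11 ± 0.76, with 0.22 on slide 1 and -2.44 on slide 2.

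Among the receptors, the insulin receptor INSR differed by -0.19 ± 0.28 in estradiol+BCO against estradiol (-0.36 and -0.02 on the slides). IGF2R, which clears IGF2 and carries lysosomal enzymes, differed by 0.04 ± 0.14 in that comparison by its brightest probe. Another IGF2R probe, A_70_P026306, was well above background on 2 of 4 estradiol+BCO arrays (measured mean -7.04) and 0 of 4 BCO arrays (-8.09). The measured difference was 1.05 ± 0.43 (adjusted p = 0.46, limma). The estradiol+BCO mean includes arrays at -7.38 and -7.52 that were not well above background, so no fold is given for this probe. The other IGF2R probes differed there by 0.10 ± 0.14 and -0.08 ± 0.12.

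Among the binding proteins, IGFBP2, abundant in fetal brain, was lower on average in estradiol against control (-0.49 ± 0.30, adjusted p = 1, limma), with 0.04 on slide 1 and -1.02 on slide 2. IGFBP5 differed there by -0.26 ± 0.31 (-0.14 and -0.38 on the slides) and IGFBP6 by -0.20 ± 0.26 (-0.07 and -0.32). IGFBP3 differed by 0.18 ± 0.17 (0.33 and 0.04) and IGFBP1 by 0.16 ± 0.41 (0.52 and -0.21). The estradiol differences of IGFBP2, IGFBP4, IGFBP5 and IGFBP6 thus had one sign and those of IGFBP1 and IGFBP3 the other, none past the threshold, and IGFBP1 and IGFBP2 changed sign between the slides.

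IGFBP4 varied between fetuses with 2 of these binding proteins. Over 16 fetuses, among its relations to the 10 other tested genes of the list, it had r = 0.75 and rho = 0.77 with IGFBP2 (adjusted permutation p = 0.0055 and 0.0064), r = 0.71 without the 2 farthest arrays, 0.52 and 0.89 on the slides, and 0.70 with group means removed. With IGFBP6 it had r = 0.74 and rho = 0.74 (adjusted permutation p = 0.0059 and 0.00685), 0.67 and 0.80 on the slides, and 0.78 with group means removed. Without the 2 farthest arrays, which are the 2 low estradiol fetuses, r with IGFBP6 was 0.44, so that relation rests in part on them. IGFBP6 read 0.59 and 0.61 in these 2 fetuses and 1.39 and 1.64 in the other 2 estradiol fetuses. The other 8 relations had adjusted permutation p-values of at least 0.231. Among the members only IGFBP4 was set against the list in this way, and the adjustment covers these 10 relations alone. IGFBP2 and IGFBP6 also came first among 751 named genes in the description of likeness below, from the same arrays. The p-values here are therefore not separate evidence.

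**Figure D4:**
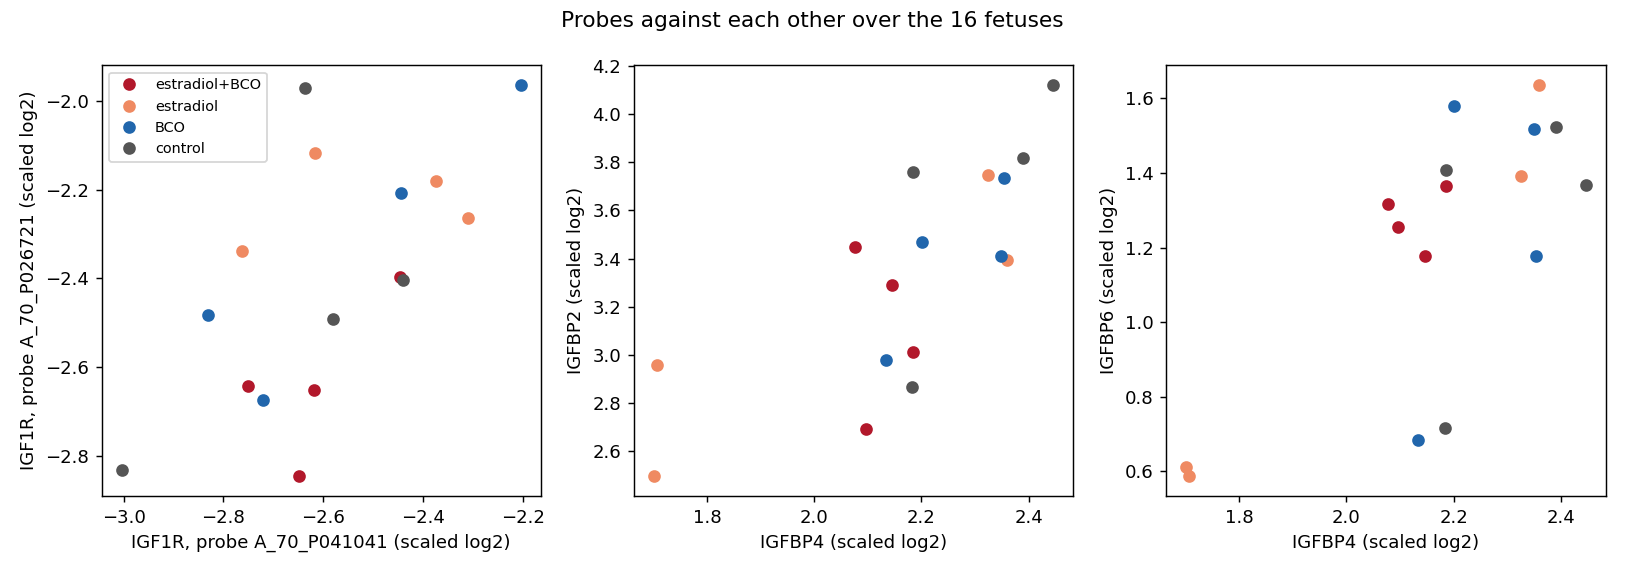
Scaled log2 signals of probe pairs over 16 fetuses: IGF1R probes A_70_P041041 and A_70_P026721 (left, r = 0.63), IGFBP4 and IGFBP2 (middle, r = 0.75), and IGFBP4 and IGFBP6 (right, r = 0.74). Colors give the group; 2 estradiol fetuses lie low on both axes of the middle and right panels.

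The genes most like each member were taken from 751 named genes by Pearson r over the 16 arrays, as a description. They share the arrays and the scaling, and the median r was -0.01 for IGF1, -0.06 for IGF1R and 0.06 for IGFBP4. IGF1 was most like PTX3, a secreted pattern recognition protein (r = 0.70), then KLK1, CLMP, CA11 and BMP4 (0.60 to 0.62), and most unlike MYD88, an adaptor of Toll-like receptors (-0.75), SLC12A4 (-0.66) and LCAT (-0.63). IGF1R probe A_70_P026721 was most like DKC1, a small nucleolar RNA and telomerase component (0.87), then CPE, KIF5B, YY1 and RPL10 (0.73 to 0.75), and most unlike YWHAH (-0.81), ARL1 and PSPH (both -0.78). IGFBP4 was most like IGFBP2 and IGFBP6, then NOS2 (0.72), CLDN3 and CD93 (both 0.68), and most unlike RAB7A (-0.58), PPP2CA and RAB9A (both -0.53). With group means removed PTX3 (0.76) and DKC1 (0.81) stayed first, and for IGFBP4 the first was TGFB1 (0.81), with IGFBP6 second.

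Of 47 genes of insulin and IGF receptor signalling, 5 had a probe and all 5 were tested: AKT1, BAD, MTOR, NCK1 and RPS6. In every comparison 0 of 5 passed the threshold by limma. At an unadjusted p under 0.05, 1 was higher in estradiol against control (1.59% of all probes), 2 were lower in estradiol+BCO against BCO (5.95%), 1 was lower in estradiol averaged over BCO (3.8%) and 2 were lower in the interaction (4.6%). NCK1, an adaptor that binds activated receptors, was at -0.85 ± 0.05 in estradiol and -1.16 ± 0.08 in control fetuses (SD, n = 4 each), without overlap (1.63% of all probes were higher without overlap in this comparison). Its difference was 0.31 ± 0.11 (SE, unadjusted p = 0.0116, adjusted p = 1, limma), with 0.34 and 0.28 on the slides. AKT1, the kinase downstream of the receptor, had estradiol averaged over BCO at -0.22 ± 0.07 (unadjusted p = 0.0116, adjusted p = 0.849, limma), with -0.24 and -0.18 on the slides. RPS6, a ribosomal protein phosphorylated in this pathway, was at 5.91 ± 0.05 in estradiol+BCO and 6.12 ± 0.06 in BCO fetuses, a difference of -0.21 ± 0.08 without overlap (unadjusted p = 0.0227, adjusted p = 0.432, limma), and 2.57% of all probes were lower without overlap there. It was -0.18 and -0.25 on the slides. MTOR, the growth-regulating kinase, differed by 0.17 ± 0.09 in estradiol+BCO against estradiol (adjusted p = 0.695, limma; 0.23 and 0.11 on the slides).

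Growth hormone drives IGF1 production in liver after birth, and its hypothalamic regulators were read from a list of 23 genes, of which 13 had a probe and 9 were tested. By limma 0 of the 9 passed the threshold in any comparison. In BCO against control 3 of 9 were lower and 0 higher at an unadjusted p under 0.05, beside 3.51% of all probes lower. In estradiol+BCO against BCO 2 of 9 were higher, GHRH and SST, and 0 lower, beside 3.57% of all probes higher. In estradiol+BCO against control 1 of 9 was lower (3.22% of all probes), in BCO averaged over estradiol 2 of 9 were lower (3.36%), and in the other 4 comparisons 0 of 9 had such a p. GHRH, the hormone that releases growth hormone, was well above background on 0 of 4 BCO arrays (measured mean -8.37) and averaged -2.25 ± 1.36 in control fetuses (SD, n = 4). Against the lowest signal well above background it was at least 32.9-fold lower in BCO (adjusted p = 0.466, limma). It averaged -4.51 ± 3.08 in estradiol+BCO fetuses (-7.53 to -1.30), where 3 of 4 arrays were well above background. The measured difference from BCO was 3.86 ± 1.52 (adjusted p = 0.437, limma), with 6.19 and 1.54 on the slides. No fold is given for it, because arrays of both groups were not well above background. SST, which encodes somatostatin, the inhibitor of growth hormone release, was at 2.70 ± 0.62 in BCO and 4.02 ± 0.46 in control fetuses, a difference of -1.32 ± 0.41 (adjusted p = 0.493, limma) without overlap, as for 1.73% of all probes on the lower side. On the slides that difference was -0.69 and -1.95. In estradiol+BCO against BCO SST differed by 1.23 ± 0.41 (unadjusted p = 0.00933, adjusted p = 0.348, limma), with overlap, and by 1.32 and 1.14 on the slides. PRL, which encodes prolactin, differed by -2.26 ± 1.04 in BCO against control with overlap (adjusted p = 0.692, limma), with -2.57 and -1.94 on the slides. It was lower by a like amount without occlusion, at -2.18 ± 1.04 in estradiol against control, and at -2.17 ± 1.04 in estradiol+BCO against control. The control fetuses ran from -3.82 to 1.12. SSTR1, a somatostatin receptor, differed by -0.37 ± 0.15 in estradiol+BCO against control (adjusted p = 0.844, limma), with -0.35 and -0.38 on the slides. GHRH and SST are also in the neuron marker list, whose summed signal was lowest in the BCO fetuses. SST is a bright part of that sum, so the sum is not separate from the SST difference. The median of the list, which also holds both genes, was -4.035 to -2.65 in BCO and -1.202 to -0.466 in control fetuses. It was -2.952 to -0.772 in estradiol+BCO and -2.597 to 0.361 in estradiol fetuses. IGF1 itself differed by 0.17 ± 0.28 in BCO against control and IGF1R by 0.09 ± 0.18, where the GHRH and SST differences were below 0.

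Marker lists of 7 cell types were set beside the 6 member probes in 42 relations over the 16 fetuses. The choroid plexus and ependyma list had 1 tested gene of 5, TTR, and the microglia and leukocyte list 3 of 10. Lists of general neuron and of oligodendrocyte genes had no tested gene, so they were not set beside the members. The lowest p-value was that of IGFBP4 probe A_70_P017097 with the median of the endothelial and mural list, which had no tested mural gene. It had r = 0.59 and rho = 0.70 (adjusted permutation p = 0.384 and 0.138), and r = 0.70 without the 2 arrays farthest in the list's median. Those were estradiol+BCO replicate 2 (-2.728) and BCO replicate 4 (-2.653), so the low estradiol fetuses of IGFBP4 were kept. On the slides r was 0.65 and 0.51, and with group means removed 0.66. None of the 42 passed after adjustment. IGF1 had r = -0.38 with hypothalamic neuron markers (adjusted permutation p = 0.891), with -0.50 and -0.07 on the slides, and IGF1R probe A_70_P026721 had r of -0.08 to 0.33 with the 7 lists.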

How the data were processed

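Total RNA (500 ng, RNA integrity number 7.4 to 8.4 per the labels) from 16 fetal hypothalami was labeled with Cy3 and hybridized to array design 019921. Per the file headers, the deposited intensities were made with Feature Extraction 10.1.1.1, which subtracted background and detrended the processed signal. The authors' deposited value table is on the log2 scale, and its values were found to equal the scanner files' log2 processed signal centred on each array's median. Genome build and test are not given in the sources used here.

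Here the log2 processed signal was scaled to each array's 75th percentile. Outlier spots (2 to 36 per array) were set to missing, and spots of a probe were averaged. Probes well above background on at least 4 arrays were kept (12937 of 15008). limma 3.58.1 in R 4.3.3 was fitted to all 16 arrays with 4 group means, 2-sided, adjusted by Benjamini-Hochberg over all probes. Several probes of a gene are given side by side, and the brightest stands for it in lists. The fit was tested on simulated data.

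Of the probes, 1360 carried 1 of 843 names, by the files' annotation and a sheep gene table (ARS-UI_Ramb_v3.0) used for names only; 2 of the 3 IGF1R probes were named from their annotation text. All probes of the 3 genes and all tested genes of the IGF list are named, with up to 4 genes of lowest p from each other list and the 5 most and 3 least correlated genes per member. The members and lists were chosen with earlier results of these data known. Correlations used 100000 permutations, 2-sided. Where a marker list was used, the 2 farthest arrays were those farthest from the middle of the list's values. In relations to the other IGF-list genes they were taken from IGFBP4, and between member probes from the probe of lower number. Replicate numbers were not treated as pairs. Alternatives were the normalization, background correction, filter, moderation, slide, replicate block, value table, groups compared alone, mean of probes and leaving out each array. The number of arrays limits precision.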

Additional observations from a re-analysis of the deposited data

Results flagged for a closer look

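In 56 groups of 4 fetuses (14 probes: the 6 member probes and the brightest probe of each other tested IGF-system gene, in 4 groups), 1 value stood far from the others of its group by Dixon's test. For IGF2R probe A_70_P041801, estradiol+BCO replicate 1 read -3.35, while the other 3 estradiol+BCO fetuses read -2.90 to -2.84. About 5% of groups would be marked by chance, or 2.8 of 56. No value of IGF1, IGF1R or IGFBP4 was marked.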

How the results depend on the processing

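The 24 results for IGF1, IGF1R and IGFBP4 (3 genes in 8 comparisons) were recomputed in 687 alternative fits. By limma 0 passed the adjusted threshold in any, the smallest adjusted p being 0.418. Of the 24, 12 kept their sign in all fits and 12 turned in some, and the cause was not tested. IGF1R in estradiol+BCO against estradiol ranged from -0.52 to -0.23 and its interaction from -0.65 to -0.33. IGFBP4 in estradiol averaged over BCO ranged from -0.26 to -0.15. With normexp background correction IGF1 turned to -0.022 in estradiol+BCO against control and -0.10 in BCO averaged over estradiol. On slide 1 alone IGFBP4 in BCO against control was 0.058. On slide 2 alone IGF1 was -0.36 in BCO against control, -0.042 in estradiol against control, 0.086 in estradiol+BCO against BCO, -0.27 in estradiol+BCO against control, -0.29 in BCO averaged over estradiol and 0.13 in the interaction, IGFBP4 was -0.015 in BCO averaged over estradiol, and IGF1R was 0.11 in estradiol averaged over BCO. The mean of its 3 probes gave IGF1R 0.001 there. Leaving out 1 array at a time, IGF1 ranged from -0.10 to 0.38 in BCO against control, -0.018 to 0.46 in estradiol against control, -0.25 to 0.024 in estradiol+BCO against BCO, -0.18 to 0.30 in estradiol+BCO against control, -0.13 to 0.11 in BCO averaged over estradiol and -0.048 to 0.19 in estradiol averaged over BCO. Without control replicate 2 all of these but estradiol+BCO against BCO turned. That one turned without BCO replicate 4 or estradiol+BCO replicate 1 or 4, estradiol+BCO against control also without estradiol+BCO replicate 3, and BCO averaged over estradiol in 8 of the 16 fits. IGF1R ranged from -0.044 to 0.24 in BCO against control and -0.12 to 0.024 in estradiol averaged over BCO. IGFBP4 ranged from -0.081 to 0.007 in BCO against control, -0.004 to 0.22 in estradiol+BCO against estradiol and -0.023 to 0.087 in BCO averaged over estradiol. Counts over all probes moved too. The 1 probe in estradiol+BCO against estradiol became 0 with median centring, slide 1 alone, slide 2 alone, the replicate block, the value table and the groups compared alone. The 1 probe in the interaction became 0 with quantile normalization, median centring, no filter, slide 1 alone, slide 2 alone and the value table, and 3 with slide as a block and with the replicate block. Slide 1 alone gave 1 for estradiol averaged over BCO. Slide 2 alone gave 14 for BCO against control, 1 for estradiol against control, 14 for estradiol+BCO against BCO and 3 for estradiol+BCO against control. The groups compared alone gave 3 for BCO against control. Leaving out 1 array at a time gave 0 to 6 for BCO against control, 0 to 1 for estradiol+BCO against estradiol, 0 to 5 for estradiol+BCO against BCO, 0 to 1 for estradiol averaged over BCO and 0 to 3 for the interaction. Replicate numbers are shared between groups by label only: with the replicate block IGF1R in estradiol+BCO against estradiol stayed at -0.41 (unadjusted p = 0.0218, adjusted p = 0.5, limma). Deviations of same-numbered arrays correlated at -0.03 to 0.27 (median 0.12), not over 0.1 in every pair, those of other arrays of the same slide at -0.03 to 0.34 (median 0.14) and those of arrays on different slides at a median of -0.13.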

Other observations

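IGF2, which varied more between fetuses than any member gene, moved with markers of connective tissue. Over 16 fetuses, among 21 relations of IGF2, IGFBP2 and IGFBP6 to the 7 marker lists, IGF2 had r = 0.83 and rho = 0.91 with the median of fibroblast and meningeal genes (COL1A1, COL1A2, COL3A1, DCN, FBLN1 and PTGDS; adjusted permutation p = 0.00252 and 0.00042). It was 0.82 without the 2 arrays farthest in that median, 0.82 and 0.87 on the slides, and 0.84 with group means removed. With the median of pituitary genes IGF2 had r = 0.78 and rho = 0.76 (adjusted permutation p = 0.00451 and 0.0104). It was 0.72 without the 2 arrays farthest in the pituitary median, and 0.90 and 0.63 on the slides. The fibroblast and meningeal median was -3.699 to -2.762 in estradiol+BCO, -3.122 to -2.399 in estradiol, -3.033 to -2.626 in BCO and -3.435 to -2.667 in control fetuses. The summed signal of these genes, in multiples of the array's 75th percentile, was 71.3 to 91.7 in estradiol+BCO, 66.2 to 83.5 in estradiol, 57.4 to 76.7 in BCO and 64.7 to 84 in control fetuses. The groups overlapped by both measures. The sum ran highest in estradiol+BCO, where the median ran lowest, and the r with IGF2 used the median. The part of these markers in the IGF2 values was not tested. IGFBP2 and IGFBP6 had no relation past adjustment with the 7 lists. The adjustment covered these 21 relations alone, of genes chosen from the IGF list.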
